A study of Mus musculus with 6 samples.

Results

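Striatal projection neuron signaling genes were followed as a group of 10 members chosen by name, Drd1, Drd2, Adora2a, Gpr6, Ppp1r1b, Rgs9, Pde10a, Penk, Tac1 and Pdyn, and all 10 were found among the 32285 mouse genes counted in these libraries. The tissue was lesion-bearing brain of C57BL/6J mice in which plasmids had been electroporated in utero into the ganglionic eminences, the ventral forebrain progenitor zone. In both groups a piggyBac transposon expressed FOXR2 with a V5 tag and GFP from the ubiquitous CAG promoter, and a second transposon carried the luciferase Akaluc. In the group named Foxr2 alone p53 was not targeted, whereas in Foxr2 p53LOF a plasmid with Cas9 and a guide to p53 was added. RNA and open chromatin were read from the same nuclei (10x Multiome). Of the 3 libraries, 1 of Foxr2 p53LOF and 1 of Foxr2 alone were analysed as counts. The counts of the second Foxr2 alone library were not analysed here, and only its peak list was used. With 1 library per genotype there was no replicate check and no test between conditions, and genotype, animal, age and the piece of brain that was dissected cannot be told apart.

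Striatal projection neurons are the GABAergic output neurons of the striatum and fall into a direct pathway, which expresses the dopamine receptor Drd1, and an indirect pathway, which expresses the dopamine receptor Drd2. Dopamine raises cyclic AMP through the first receptor and lowers it through the second, and adenosine raises it through Adora2a in the indirect pathway. Both neuron types share a set of intracellular regulators of cyclic AMP and G protein signaling, and each releases its own peptides beside GABA. Among the members, Drd1, Tac1 and Pdyn are textbook genes of the direct pathway, Drd2, Adora2a, Gpr6 and Penk of the indirect pathway, and Ppp1r1b, Rgs9 and Pde10a are shared.

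Promoter sequences are shown for 2 direct-pathway genes (Drd1 and Pdyn) and 2 indirect-pathway genes (Drd2 and Gpr6), since the accessibility of these promoters is compared between the neuron types further on. Each is 200 bases of the RefSeq promoter table on build GRCm38.p6, 5′ to 3′ on the strand of the gene, and lies before the annotated gene. The windows were chr13:54055706-54055905 for Drd1, chr2:129699939-129700138 for Pdyn and chr10:41072291-41072490 for Gpr6, all on the minus strand, and chr9:49340203-49340402 for Drd2 on the plus strand. Capitals mark every match, on either strand, to the TATA box TATAAA, to the GC box GGGCGG, to the cyclic AMP response element TGACGTCA, to its first part TGACG alone and to the MEIS homeodomain motif TGACAG.
Drd1: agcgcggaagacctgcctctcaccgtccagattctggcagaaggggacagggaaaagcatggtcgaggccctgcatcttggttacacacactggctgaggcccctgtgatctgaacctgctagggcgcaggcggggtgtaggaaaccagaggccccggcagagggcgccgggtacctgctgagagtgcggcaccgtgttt
Pdyn: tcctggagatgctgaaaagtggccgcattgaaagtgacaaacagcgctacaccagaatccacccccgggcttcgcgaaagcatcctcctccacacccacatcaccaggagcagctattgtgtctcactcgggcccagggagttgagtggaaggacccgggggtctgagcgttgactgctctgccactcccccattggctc
Drd2: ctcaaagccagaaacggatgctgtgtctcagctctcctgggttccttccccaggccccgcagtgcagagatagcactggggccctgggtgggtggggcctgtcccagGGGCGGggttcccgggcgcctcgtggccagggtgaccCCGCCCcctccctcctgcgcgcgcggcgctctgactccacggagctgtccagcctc
Gpr6: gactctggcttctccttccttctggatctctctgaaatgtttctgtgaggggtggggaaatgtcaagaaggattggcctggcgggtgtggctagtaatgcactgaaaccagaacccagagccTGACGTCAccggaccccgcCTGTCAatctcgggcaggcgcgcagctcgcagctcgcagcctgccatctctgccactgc
The Gpr6 window held the palindromic TGACGTCA with its first base 83 bases before the gene, and this match holds both TGACG matches of the window. TGACGTCA was present in 1.47% of the 32851 promoters in the table and TGACG in 15.7%. Gpr6 also held TGACAG on the opposite strand with its first base 64 bases before the gene, a motif of 12.9% of promoters. The Drd2 window held GGGCGG once on each strand, 317 and 280 bases before the gene, a motif of 31.05% of promoters. Distances are counted to the gene start of GENCODE M21. The Drd2 window ends 225 bases before that start, directly before the start site of the RefSeq table, so its motifs lie nearer to the latter. TATAAA, in 9.96% of promoters, was in none of the 4 windows. The Drd1 and Pdyn windows held no match, which says only that these letters were not in these bases. RefSeq entries were found for 7 of the 10 members.

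After filters, 8359 Foxr2 p53LOF nuclei (median 5527 UMIs) and 8316 Foxr2 alone nuclei (median 3637) were kept. The targeted gene Trp53 was at 33.6 UMIs per 1000000 (CPM; 95% Poisson interval 32.2 to 35.1) in the Foxr2 p53LOF library and at 12.9 CPM (11.8 to 14.04) in the other, and since a Cas9 edit need not lower RNA this does not check the label. The GFP level was 324 CPM in the former library and 29.0 CPM in the latter. No UMI was counted on the p53 guide or Cas9 sequences in either library. All intervals here cover counting error only. Between the libraries 94 kept nuclei shared a barcode, of which 19 were among the striatal projection neuron-like nuclei described next.

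The Foxr2 alone library held 2025 striatal projection neuron-like nuclei, in 4 of its neuron clusters, and Foxr2 p53LOF held no cluster of that name. The name rests on 8 markers that are not members (Bcl11b, Foxp1, Meis2, Rarb, Zfp503, Ano3, Syndig1l and Strip2), and the members and their partner genes were kept out of the genes used for clustering. All 8 were raised in each of the 4 clusters, and their summed level was 4813 and 5336 CPM in the largest clusters against 362 to 1680 CPM in the cortical glutamatergic neuron-like clusters. Some neuron clusters without a name also had high sums, up to 3814 CPM, near the 4261 CPM of the lowest of the 4 named clusters. Bcl11b, a transcription factor on this marker list, was at 324 CPM in the striatal projection neuron-like nuclei, a high level that follows from the naming. It was at 17.8 CPM in all neuron-like nuclei of Foxr2 p53LOF. Meis2, also on the list, was among the leading genes of the midbrain and diencephalic GABAergic-like cluster of that library. The neurons of Foxr2 p53LOF were instead dopamine neuron-like (164 nuclei), Slc17a6 glutamatergic-like (720) and midbrain and diencephalic GABAergic-like (516), each seen in 1 library only, so that a type and the library that holds it cannot be told apart. The thresholds for a name were set after the data had been seen, and 12.6% of the neuron-like nuclei of Foxr2 alone and 37.8% of those of Foxr2 p53LOF had no type.

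The receptors were measured first. Drd1, the Gs-coupled receptor of the direct pathway, was at 106 CPM (101 to 111) in the striatal projection neuron-like nuclei and at 11.2 CPM in the 1384 cortical glutamatergic neuron-like nuclei of the same library. Drd2, the Gi-coupled receptor of the indirect pathway, was at 262 CPM (253 to 270) against 2.19 CPM. Adora2a, the adenosine receptor that opposes Drd2 in the same neurons, was at 67.3 CPM (63.1 to 71.7) against 0.876 CPM. Each receptor was thus far higher in the striatal set. Gpr6, an orphan receptor that raises cyclic AMP, was at 33.1 CPM (30.1 to 36.2) against 1.46 CPM. As a UMI was seen in 17.7% of the striatal nuclei for Gpr6, in 26.8% for Adora2a, in 39.1% for Drd1 and in 45.3% for Drd2, most nuclei of the set had no UMI of any given receptor.

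The shared regulators were detected in most of the same nuclei. Ppp1r1b, which encodes DARPP-32, the phosphatase inhibitor through which dopamine and protein kinase A act, was at 341 CPM (331 to 351), with a UMI in 82.0% of nuclei. Rgs9, a regulator of G protein signaling that shortens receptor responses, was at 296 CPM (287 to 305) and in 78.4% of nuclei. Pde10a, the phosphodiesterase that breaks down cyclic AMP and cyclic GMP in these neurons, was at 1702 CPM (1681 to 1724) and in 99.4%. In cortical glutamatergic neuron-like nuclei the values were 33.3 CPM for Ppp1r1b, 29.2 CPM for Rgs9 and 335 CPM for Pde10a, so that Pde10a kept the largest share of its striatal level there. The cortical Ppp1r1b level was below the 92.6 CPM of oligodendrocyte-like nuclei of the same library. Rgs9 and Pde10a were above theirs, at 21.6 and 37.4 CPM. Whether the cortical levels are expression was not tested.

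The peptide genes came last. Penk, the enkephalin precursor, was at 1345 CPM (1326 to 1364) with a UMI in 69.1% of nuclei, against 31.1 CPM in the cortical set. Tac1, the precursor of substance P, was at 380 CPM (369.9 to 390) and in 56.5% of nuclei, against 11.4 CPM. Pdyn, the dynorphin precursor, was at 21.1 CPM (18.8 to 23.6) and in 11.2%, against 0.803 CPM. The 304 GABAergic interneuron-like nuclei held Pdyn at 24.7 CPM, against 0.763 CPM in oligodendrocyte-like and 6.60 CPM in astrocyte-like nuclei of the same library, and Pde10a at 541 CPM, against 37.4 and 344 CPM. Their Tac1 (112 CPM) and Penk (88.4 CPM) were no higher than in the astrocyte-like nuclei, at 145 and 343 CPM. In the oligodendrocyte-like nuclei Tac1 was lower, at 61.0 CPM, and Penk higher, at 113 CPM. The 267 Tac1 UMIs lay in 61 of the interneuron-like nuclei, against 240 UMIs in 204 oligodendrocyte-like nuclei. The cortical levels of Penk and Tac1 were below those of the oligodendrocyte-like nuclei, and that of Pdyn was close to theirs. Whether the levels in the interneuron-like and cortical sets are expression was not tested.

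**Figure D1:**
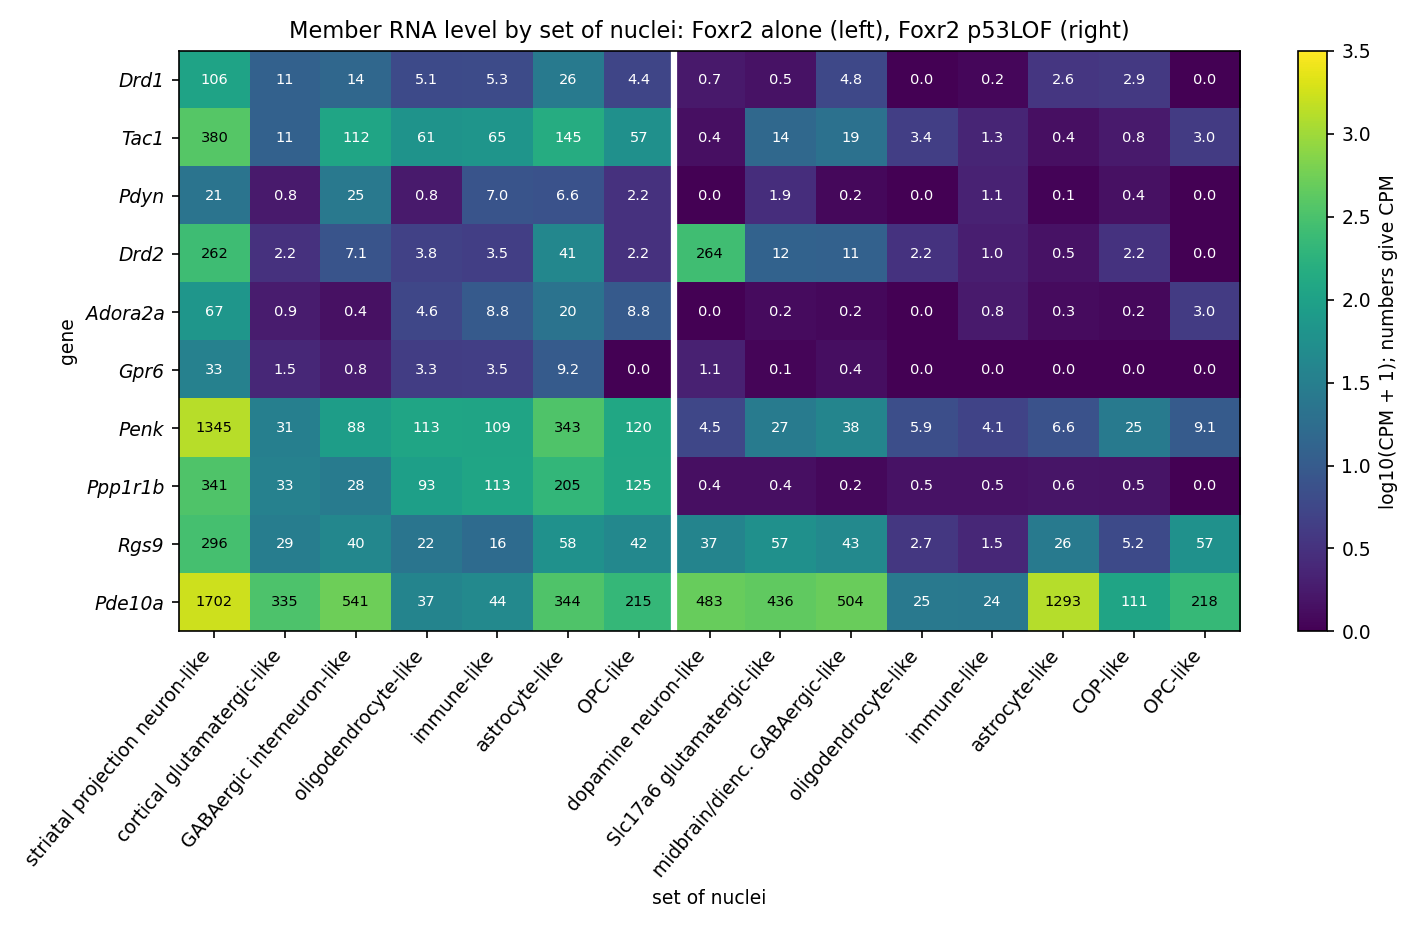
Member RNA level by set of nuclei, with genes as rows and sets as columns (Foxr2 alone left of the white line, Foxr2 p53LOF right). The color gives log10(CPM + 1) and the printed numbers give CPM from summed UMIs of 1 library each; the striatal projection neuron-like column is high for all 10 genes, Drd2 is also at 264 CPM in dopamine neuron-like nuclei, and Pde10a at 1293 CPM in astrocyte-like nuclei of Foxr2 p53LOF.

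A gene was called different between 2 sets of nuclei where its CPM differed at least 2-fold and reached 10 CPM in either set. Against the cortical glutamatergic neuron-like nuclei all 10 members were higher, whereas 8.67% of 10199 genes tested were. The median log2 ratio of the members was 4.61, and the ratio of their summed CPM was 3.32 (3.28 to 3.36; 4553 against 456 CPM). The log2 ratio was highest for Drd2 at 6.90 and Adora2a at 6.26, followed by Penk at 5.43, Tac1 at 5.06, Pdyn at 4.72 and Gpr6 at 4.50. Ppp1r1b at 3.36, Rgs9 at 3.34, Drd1 at 3.25 and Pde10a at 2.34 differed less. Of 14 partner genes that could be tested, a list of other striatal signaling genes that holds receptors, G protein subunits, adenylyl cyclase and small GTPase regulators, 11 were higher. Large partner ratios were those of Rasgrp2, a Rap exchange factor (log2 4.56), the orphan receptor Gpr52 (3.89) and the G protein subunit Gng7 (3.85).

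Within the striatal set, the direct- and indirect-pathway genes lay in different clusters of nuclei. The 2 large clusters, of 912 and 876 nuclei, are named here by non-member genes of the pathway marker lists. The Ebf1-high cluster had the transcription factor Ebf1 at 171 CPM against 2.08 CPM in the other, and Isl1, a direct-pathway transcription factor, at 30.7 against 0.694 CPM. The Grik3-high cluster had the indirect-pathway markers Grik3 at 213 against 3.57 CPM and Ptprm at 164 against 8.34 CPM. A cluster of 137 nuclei, named here by Reln, a non-member among its 10 leading genes (Tac1 was the first), and a mixed cluster of 100 nuclei made up the rest. The mixed cluster had a mean mitochondrial share of 1.004%, against 0.109% and 0.116% in the large clusters, and summed oligodendrocyte markers of 965 CPM, and the part of these in its values was not tested.

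Drd2 was at 583 CPM in the Grik3-high cluster and 10.1 CPM in the Ebf1-high cluster, a log2 ratio of 5.85. Adora2a was at 146 against 4.91 CPM (4.89), Gpr6 at 69.2 against 2.68 CPM (4.69) and Penk at 2815 against 164 CPM (4.10). All 4 indirect-pathway members were thus higher in the Grik3-high cluster, where 0.776% of 9530 genes tested were higher. In the opposite direction Drd1 was at 6.07 CPM in the Grik3-high and 180 CPM in the Ebf1-high cluster (log2 -4.89), Tac1 at 55.5 against 531 CPM (-3.26) and Pdyn at 2.78 against 33.2 CPM (-3.58). These 3 direct-pathway members were lower, as were 0.902% of genes tested. The shared regulators differed little between the clusters: Ppp1r1b was at 323 against 332 CPM (log2 -0.04, -0.13 to 0.05), Rgs9 at 302 against 301 CPM (0.01) and Pde10a at 1822 against 1597 CPM (0.19, 0.15 to 0.23). Of 14 partners tested, 2 were higher in the Grik3-high cluster, among them Gpr52 (log2 4.55), and none was lower. Since the clusters were drawn from the RNA of these nuclei, the differences describe the clusters and are no test.

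The smaller clusters combined the members in other ways. The Reln cluster had Tac1 at 1443 CPM (1365 to 1523), above both large clusters, with Drd1 at 213 CPM, Pdyn at 46.6 CPM and Drd2 at 24.4 CPM. A neuron cluster of 247 nuclei with Foxp2, Gpr149 and Alk as its first leading genes, which kept no name, had direct- and indirect-pathway genes side by side, with Drd1 at 105 CPM, Tac1 at 928 CPM, Drd2 at 143 CPM and Penk at 696 CPM. Another unnamed cluster, of 72 nuclei with Sox2ot, Sv2c and Tac1 as its first leading genes, called here by Fign, which is also among them, had Drd1 at 162 CPM and Tac1 at 928 CPM with no UMI of Drd2, Adora2a or Gpr6, where 3 UMIs would be 7.84 CPM. This cluster had Isl1 at 128 CPM but no UMI of Ebf1 or Eya1, which are on the same direct-pathway list. Its summed GABAergic interneuron markers were 1590 CPM against 394 CPM in the Ebf1-high cluster. Pdyn made up 0.0857% of the 1167 member UMIs of the Fign cluster, against 1.05% of those of the Ebf1-high cluster. In the mixed cluster Drd1 was at 85.7 CPM and Drd2 at 320 CPM. A cluster of 17 nuclei led by Slc5a7, the choline transporter of cholinergic neurons, had Drd2 at 484 CPM, with a UMI in 16 nuclei, and no UMI of Adora2a.

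**Figure D2:**
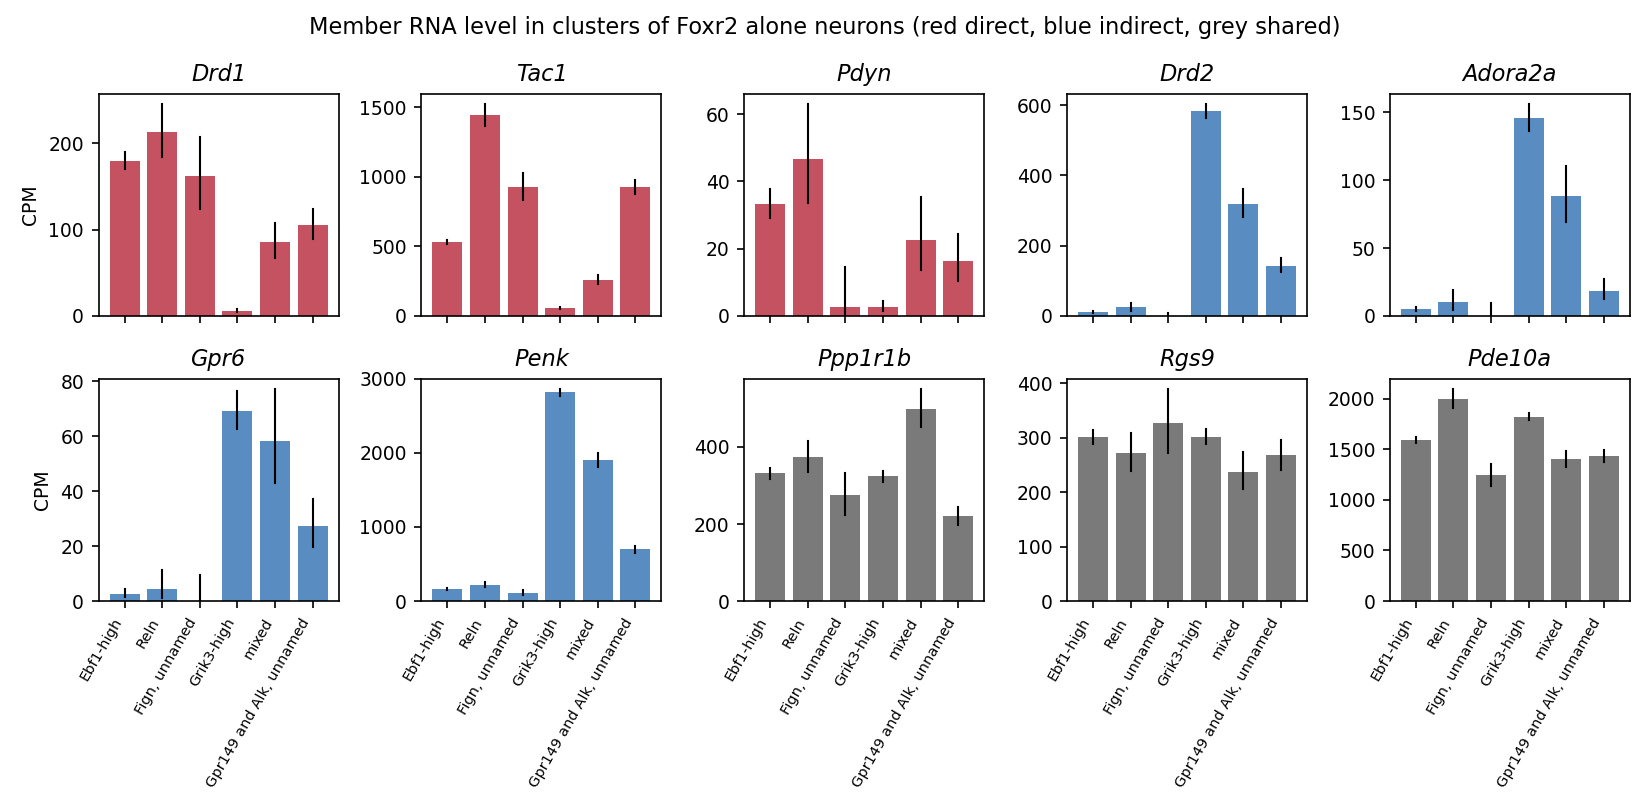
RNA level (CPM, linear axes from 0) of each member in 6 neuron clusters of Foxr2 alone, with bars for summed UMIs of 1 library and lines for 95% Poisson intervals; red marks direct-pathway, blue indirect-pathway and grey shared genes. Drd1, Tac1 and Pdyn are low in the Grik3-high cluster, and Pdyn is low in the Fign cluster too. Drd2, Adora2a, Gpr6 and Penk are low in the Ebf1-high, Reln and Fign clusters, and Ppp1r1b, Rgs9 and Pde10a are present in all 6.

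Co-detection in single nuclei was then counted over all 2025 striatal projection neuron-like nuclei. Of 792 nuclei with a Drd1 UMI, 47 also had a Drd2 UMI (5.93%, exact binomial interval 4.39 to 7.81), against 70.6% of the nuclei without Drd1. The pair of dopamine receptors was therefore seldom seen in the same nucleus. Of 543 nuclei with Adora2a, 505 had Drd2 (93.0%), against 27.9% of the nuclei without it. Of 358 nuclei with Gpr6, 333 had Drd2 (93.0%), against 35.1%. The indirect-pathway receptors thus met in the same nuclei, and their peptide with them: of 918 nuclei with Drd2, 908 had Penk (98.9%), against 44.4%. On the direct side Tac1 was in 725 of 792 nuclei with Drd1 (91.5%, against 34.0% without) and in 210 of 226 nuclei with Pdyn (92.9%, against 51.9%). Pdyn and Drd1 themselves met in 162 of the 226 nuclei with Pdyn (71.7%). Ppp1r1b did not follow the receptors, being in 85.5% of nuclei with Drd1 and 79.7% without, and in 80.8% of nuclei with Drd2 and 82.9% without.

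Shares of nuclei depend on depth, so every nucleus was also thinned to 1000 UMIs, which left out 1 nucleus. After thinning, 6 of 184 nuclei with Drd1 had Drd2 (3.26%, 1.21 to 6.96), against 23.3% of those without. The share was 1% with doublets kept, 1.198% with minima of 1000 genes and 1000 peak counts and 0.498% at clustering resolution 1.0. In the first 2 of these settings, a cluster with Tac1, Penk and Ppp1r1b among its leading genes was named oligodendrocyte-like (166 and 165 nuclei). It was thus outside the striatal set counted there, and the effect of doublets on the share was not tested. Drd2 was in 54 of 128 nuclei with Adora2a (42.2%, 33.5 to 51.2), against 20.04%, and in 29 of 67 nuclei with Gpr6 (43.3%). The directions held while the shares for Adora2a and Gpr6 fell far below the unthinned values. Penk was in 383 of 434 nuclei with Drd2 (88.2%) and Tac1 in 79 of 184 with Drd1 (42.9%). In oligodendrocyte-like nuclei of the same library, the unthinned share with a UMI was 0.629% for Drd1, 0.497% for Drd2 and 0.596% for Adora2a. It was 6.76% for Tac1, 9.01% for Ppp1r1b and 10.3% for Penk. The median depth was 1172 UMIs in these nuclei against 6674 in the striatal set. At 1000 UMIs each, Drd1 was in 9.09% of striatal and 0.332% of oligodendrocyte-like nuclei and Drd2 in 21.4% and 0.427%, with 914 of 3020 oligodendrocyte-like nuclei too shallow to enter.

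**Figure D3:**
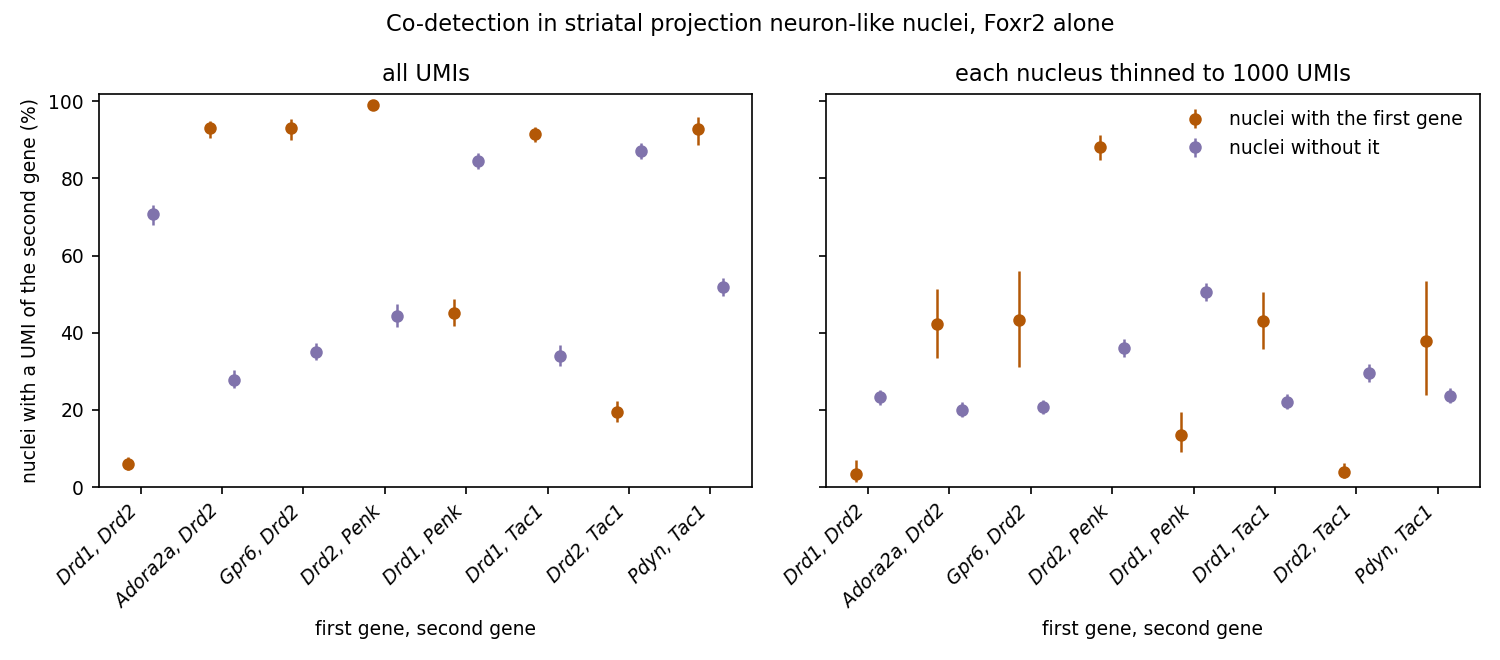
Share of nuclei (%) with a UMI of the second gene among striatal projection neuron-like nuclei with (orange) or without (purple) a UMI of the first gene, with exact binomial intervals, for all UMIs (left) and after thinning each nucleus to 1000 UMIs (right). Drd2 was in 5.93% of nuclei with Drd1 and in 93.0% of those with Adora2a before thinning, and in 3.26% and 42.2% after it.

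By receptor, 745 nuclei (36.8%) had Drd1 only, 871 (43.0%) Drd2 only, 47 (2.32%) both and 362 (17.9%) neither. Nuclei with both had a median of 9488 UMIs, against 7117 for Drd1 only and 6368 for Drd2 only, and the part of depth or of joined nuclei in them was not tested. Of the nuclei with both receptors, 15 lay in the Ebf1-high, 18 in the Grik3-high, 4 in the Reln and 10 in the mixed cluster. As shares of the nuclei with Drd1, these were 2.37% in the Ebf1-high cluster, 72.0% in the Grik3-high cluster, where only 25 nuclei had Drd1, and 29.4% in the mixed cluster. Of the nuclei with neither receptor, 271 lay in the Ebf1-high cluster. These still had the other members, with Ppp1r1b at 320 CPM, Tac1 at 524 CPM and Pde10a at 1525 CPM over all nuclei with neither receptor. In the unnamed Gpr149 and Alk cluster, Drd2 was in 6 of 95 nuclei with Drd1 (6.32%), while Penk was in 158 of 205 nuclei with Tac1 (77.1%), against 42.0% in the Ebf1-high cluster.

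Members were next measured in non-neuronal nuclei, and whether these express any of them was not tested. Summed over the 10 members, the striatal set had 4553 CPM and the oligodendrocyte-like nuclei of the same library 343 CPM, a 13.3-fold difference (log2 3.73, 3.65 to 3.81). All 10 members were higher in the striatal set, where 25.3% of 10610 genes tested were, and their median log2 ratio was 3.83 against 0.01 for all genes tested. Of 14 partners tested, 13 were higher, with large ratios for the glutamate receptor Grm5 (log2 6.01), Gpr52 (6.34, 3.85 to 11.65, from 1 UMI in oligodendrocyte-like nuclei), the cannabinoid receptor Cnr1 (4.15) and the G protein subunit Gnal (3.68). The size of the summed difference depended on how the oligodendrocyte-like nuclei were chosen. It was log2 2.04 with Scrublet doublets kept and 1.16 with minima of 1000 genes and 1000 peak counts per nucleus, when a cluster of 166 or 165 nuclei with Ptgds, Tac1, Penk and Ppp1r1b among its leading genes and a median of 7764.5 or 7741 UMIs took the oligodendrocyte-like name. Without that cluster, a choice made after seeing the data, it was 3.71 and 2.93.

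The level in oligodendrocyte-like nuclei was an unequal share of the striatal level. It was 27.2% for Ppp1r1b (92.6 CPM), 16.1% for Tac1 (61.0 CPM), 10.0% for Gpr6, 8.40% for Penk (113 CPM) and 7.30% for Rgs9 (21.6 CPM). It was lower for Adora2a (6.80%), Drd1 (4.80%), Pdyn (3.62%), Pde10a (2.197%, 37.4 CPM) and Drd2 (1.46%, 3.82 CPM). The Pdyn share rests on 3 UMIs (log2 ratio 4.79, 3.23 to 7.07). All of these shares were larger when the cluster described above took the oligodendrocyte-like name: the log2 ratio of striatal over oligodendrocyte-like nuclei then ran from 1.25 (Tac1) to 2.55 (Drd2) with doublets kept and from 0.42 (Tac1) to 1.54 (Drd2) with the higher minima, where Drd1 (0.76), Ppp1r1b (0.62) and Tac1 were under 2-fold. The mixture of member UMIs therefore differed between the sets: Ppp1r1b made up 27.0% of member UMIs in oligodendrocyte-like nuclei and 7.49% in the striatal set, Pde10a 10.9% and 37.4%, and Penk 32.9% and 29.5%. The 424 immune-like nuclei had nearly the same mixture as the oligodendrocyte-like ones, with Ppp1r1b at 30.05%, Pde10a at 11.7%, Penk at 29.1% and Tac1 at 17.4% against 17.8%. Their summed level was 375 CPM (326 to 429), and the ratio of oligodendrocyte-like to immune-like nuclei was log2 -0.13 (-0.34 to 0.09).

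Astrocyte-like nuclei of Foxr2 alone had more, 1197 CPM summed over the members, with Penk at 343, Pde10a at 344, Ppp1r1b at 205 and Tac1 at 145 CPM. OPC-like (oligodendrocyte progenitor) nuclei had 576 CPM. The part of free RNA and of joined nuclei in these levels was not tested.

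In Foxr2 p53LOF, the library with no striatal projection neuron-like cluster, the oligodendrocyte-like and immune-like classes had far less, whereas the astrocyte-like class had 1329 CPM, nearly all of it Pde10a. OPC-like nuclei of Foxr2 p53LOF lay between, at 291 CPM against 576 CPM in Foxr2 alone, and their Pde10a was at 218 against 215 CPM. Summed member RNA in oligodendrocyte-like nuclei was 39.5 CPM (33.6 to 46.1) in Foxr2 p53LOF against 343 CPM (325 to 362) in Foxr2 alone. The median depth of these nuclei was 2451.5 against 1172 UMIs. In immune-like nuclei it was 34.7 CPM (30.2 to 39.7) against 375 CPM, at a median of 2673 against 1131 UMIs. Almost all oligodendrocyte-like nuclei of Foxr2 alone (3018 of 3020) lay in a cluster apart from the 1526 of Foxr2 p53LOF. Of 424 immune-like nuclei of Foxr2 alone, 416 lay in a cluster led by C1qc. Those of Foxr2 p53LOF lay mainly in clusters led by Cd74 (998) and Dock2 (693). The parts of depth and of cluster in these differences were not tested. For oligodendrocyte-like nuclei, 5 members reached 10 CPM in either library and 4 of them were at least 2-fold higher in Foxr2 alone, where 20.6% of 9706 genes tested were higher. These 4 reached 10 CPM in Foxr2 alone only, which fixed the direction of their calls, so that the count is a description and no test. Ppp1r1b was at 92.6 against 0.491 CPM (log2 7.56, 5.70 to 10.61, from 2 UMIs in Foxr2 p53LOF), Penk at 113 against 5.89 CPM (4.26), Tac1 at 61.0 against 3.43 CPM (4.15) and Rgs9 at 21.6 against 2.70 CPM (3.00). Pde10a, the only member over 10 CPM in both libraries, was at 37.4 against 24.8 CPM (0.59, 0.22 to 0.97). Drd1, Adora2a and Gpr6 had no UMI in the Foxr2 p53LOF set and 20, 18 and 13 UMIs in Foxr2 alone. Against a floor of 3 UMIs per library, Foxr2 alone was 6.91-fold, 6.22-fold and 4.49-fold higher, with counting error left out. All were under 10 CPM in both libraries and so not called. Drd2 was at 3.82 against 2.21 CPM (log2 0.79, -0.50 to 2.16), an interval that includes no difference, and Pdyn had at most 3 UMIs in either library. Of 13 partners tested, 10 were higher in Foxr2 alone.

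**Figure D4:**
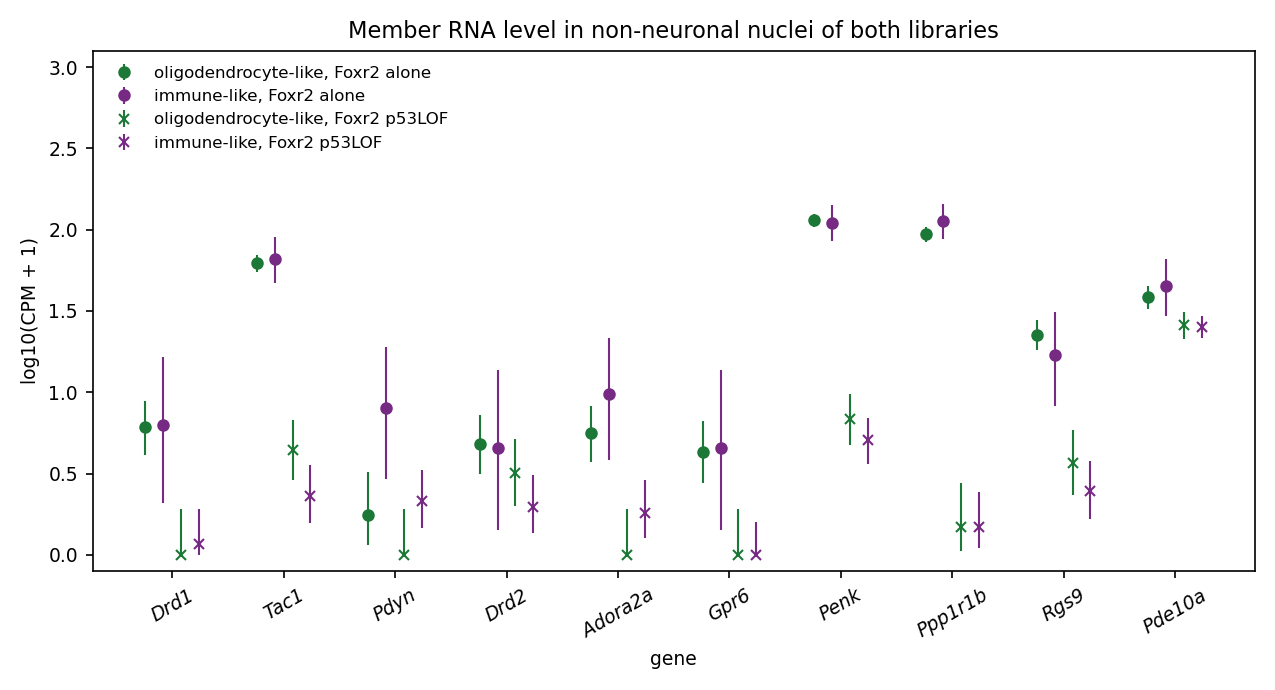
Member RNA level, as log10(CPM + 1) with 95% Poisson intervals, in oligodendrocyte-like (green) and immune-like (purple) nuclei of Foxr2 alone (circles) and Foxr2 p53LOF (crosses), with genes on the horizontal axis. For Penk, Tac1, Ppp1r1b and Rgs9 the circles lie well above the crosses, and for Pde10a they lie close together, at 37.4 and 24.8 CPM in oligodendrocyte-like nuclei.

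In the Foxr2 p53LOF library, Pde10a was high in astrocyte-like and Drd2 in dopamine neuron-like nuclei. Astrocyte-like nuclei of Foxr2 p53LOF had Pde10a at 1293 CPM (1271 to 1315), which was 97.2% of their member UMIs. At 1000 UMIs each, 49.1% of these nuclei had a Pde10a UMI. These nuclei came mainly from a cluster of 1145 nuclei in which 7 of 8 astrocyte markers were raised but whose leading genes were Hmga2, Gm4951 and Gbp2, and they had GFP at 574 CPM. A further 125 nuclei of that library had Pde10a at 720 CPM and GFP at 369 CPM. They are given no name here, since endothelial markers were raised in their cluster but 9 of its 10 leading genes were those of the astrocyte-like cluster. Committed progenitor (COP)-like nuclei had Pde10a at 111 CPM and Penk at 25.5 CPM. Their cluster of 1229 nuclei, all of Foxr2 p53LOF, had 8 COP markers raised. Its leading genes included Hmga2, Iigp1 and Gbp2, as did those of the astrocyte-like cluster. Drd2 was at 264 CPM (245 to 284) in the dopamine neuron-like nuclei, where it serves as the autoreceptor that limits dopamine release. It was seen in 124 of 164 of these nuclei (75.6%). Of the 124, 120 also had Slc6a3, the dopamine transporter, and 104 had Th, the rate-limiting enzyme of dopamine synthesis. Slc6a3 and Th are among the markers that named the set, so their counts follow from the name. Of the same 124 nuclei, 5 had Penk and none had Adora2a. The Drd2 level differed from that of the striatal set of Foxr2 alone by log2 0.01 (-0.10 to 0.13), at a median of 15584 UMIs per dopamine neuron-like nucleus against 6674. The striatal value pools nuclei of both pathways, and in the Grik3-high cluster alone Drd2 was at 583 CPM, above the dopamine neuron-like level. The same nuclei had Pde10a at 483 CPM and Rgs9 at 36.5 CPM.

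Across all neuron-like nuclei, the summed level of the members was 598 CPM for Foxr2 p53LOF against 2435 CPM for Foxr2 alone (log2 -2.03, -2.05 to -2.001). All 10 members were lower in Foxr2 p53LOF, where 19.1% of 10598 genes tested were, with a median log2 ratio of -4.14 against -0.05 over all genes tested. The neuron-like nuclei were of different types in the 2 libraries, so that a change within a neuron type cannot be told apart from the presence of other neurons. Among the receptors Drd1 was at 2.23 against 58.0 CPM (log2 -4.70), Adora2a at 0.159 against 30.2 CPM (-7.57), Gpr6 at 0.596 against 16.1 CPM (-4.76) and Drd2 at 38.6 against 124 CPM (-1.68). Among the regulators Ppp1r1b was nearly absent from Foxr2 p53LOF neurons, with 5 UMIs (0.199 against 176 CPM, -9.79). Rgs9 at 58.1 against 159 CPM (-1.45) and Pde10a at 452 against 997 CPM (-1.14) kept a larger part of their level. The peptide genes lay between these, with Penk at 27.0 against 633 CPM (-4.55), Tac1 at 17.3 against 229 CPM (-3.73) and Pdyn at 1.11 against 12.04 CPM (-3.44). Of 13 partners tested, 8 were lower and none was higher, with large ratios for the small GTPase Rasd2 (log2 -4.49), Gng7 (-3.08) and Gpr52 (-2.84, under 10 CPM in both libraries and so not tested).

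Chromatin accessibility at the promoters was read as transposase cut-site counts in deposited peaks within 1000 bp of an annotated start site. The peak lists placed 14 such peaks at all 10 members in the first Foxr2 alone library, 12 peaks at 9 members in the second and 13 peaks at 9 members in Foxr2 p53LOF. Pdyn was the member without a promoter peak in both of the latter lists. Peaks were called separately in each library, so promoter counts are compared only within a library. The Drd1 peak of the first Foxr2 alone library, chr13:54055253-54056040 on mm10, covered the whole Drd1 sequence printed above, and the Gpr6 peak, chr10:41071935-41072767, covered the Gpr6 sequence.

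Peak counts were scaled like UMIs, per 1000000 peak counts of a set of nuclei (peak CPM). Where a member had several promoter peaks, their counts were summed. Summed over the members, promoter peaks held 235 peak CPM in striatal projection neuron-like nuclei and 60.2 peak CPM in oligodendrocyte-like nuclei (log2 1.96, 1.84 to 2.09). Of 13 member peaks that reached 5 peak CPM in either set, 10 were at least 2-fold higher in the striatal set and none was lower. However, 50.1% of the 66013 peaks tested were also higher. The median log2 ratio was 3.67 over the member peaks tested and 1.02 over all peaks tested. With minima of 1000 genes and 1000 peak counts, when the oligodendrocyte-like class took in the cluster described for RNA, the log2 ratio was 1.14 (0.99 to 1.30). Accessibility in oligodendrocyte-like nuclei was 0.865% of the striatal level for Tac1 (11.1 peak CPM in the striatal set), 2.42% for Drd1 (17.9), 2.44% for Gpr6 (19.7), 2.73% for Penk (24.6) and 5.67% for Pdyn (11.9). It was much higher for the other members, at 25.3% for Ppp1r1b, 43.7% for Pde10a, 44.1% for Drd2, 46.2% for Adora2a and 54.0% for Rgs9. The log2 ratios of Pde10a (1.19), Drd2 (1.18), Adora2a (1.11) and Rgs9 (0.89) lay near the median of all peaks tested. RNA and promoter signal thus gave different orders with the filters used here. Tac1 and Penk, with RNA at 16.1% and 8.40% of the striatal level in oligodendrocyte-like nuclei, had almost no promoter counts there (2 counts for Tac1, log2 ratio 6.85, 4.35 to 12.17), whereas Drd2, with RNA at 1.46%, had 7.07 promoter peak CPM. Summed over its promoter peaks, which lie at different start sites, Pde10a was at 32.8 peak CPM in the striatal set. In cortical glutamatergic neuron-like nuclei it was at 56.9 peak CPM (log2 -0.80), although its RNA was lower there. The other members had positive log2 ratios of striatal over cortical nuclei, from 0.47 for Adora2a to 3.16 for Drd2. The median over all peaks tested in this comparison was -0.06.

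Between the large clusters the promoters followed the RNA. The Drd2 promoter was at 33.1 peak CPM in the Grik3-high and 1.67 peak CPM in the Ebf1-high cluster (log2 4.31), that of Gpr6 at 37.1 against 5.08 (2.87), that of Penk at 41.5 against 10.1 (2.04) and that of Adora2a at 15.9 against 4.68 (1.76). The 5 peaks of these 4 genes were at least 2-fold higher in the Grik3-high cluster, as were 1.46% of 56351 peaks tested. The Drd1 promoter was at 6.03 against 27.6 peak CPM, the Tac1 promoter at 2.97 against 16.3 (log2 -2.45) and the Pdyn promoter at 2.72 against 20.004 (-2.88). The 4 peaks of these 3 genes were lower, as were 2.14% of peaks tested. The promoters of Ppp1r1b (log2 -0.09) and Pde10a (-0.17) differed little, and that of Rgs9 was 2-fold different in neither direction. Peak counts did not enter the clustering, which used RNA of other genes, but both readouts come from the same nuclei of 1 library.

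**Figure D5:**
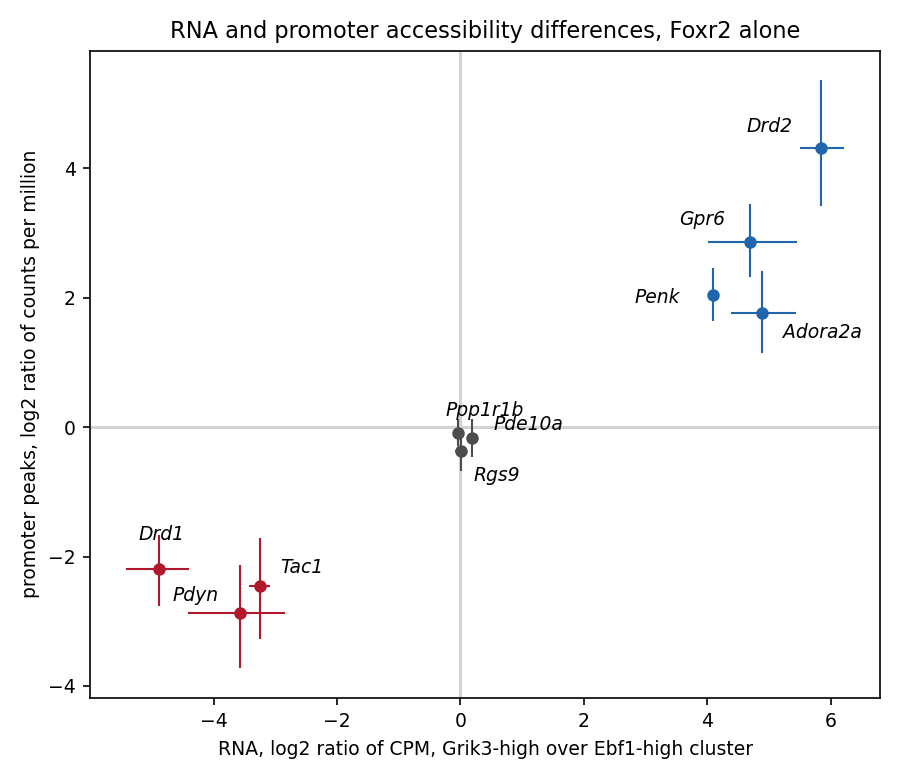
Log2 ratio of the Grik3-high over the Ebf1-high cluster of Foxr2 alone for RNA (horizontal, CPM) and for promoter peaks (vertical, peak CPM), 1 point per member with 95% counting intervals; blue marks indirect-pathway, red direct-pathway and grey shared genes. The 4 blue points lie at the upper right, the 3 red points at the lower left and the 3 grey points near 0 on both axes.

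In Foxr2 p53LOF some promoters were accessible where little RNA was counted. The Gpr6 promoter was at 23.1 peak CPM (20.2 to 26.4) in neuron-like nuclei, whose Gpr6 RNA was 0.596 CPM, and at 2.10 peak CPM in its oligodendrocyte-like nuclei. The Ppp1r1b promoter was at 13.2 peak CPM in neuron-like nuclei, with 5 RNA UMIs, and at 13.6 peak CPM in oligodendrocyte-like nuclei. The Drd2 promoter was at 22.9 peak CPM in dopamine neuron-like nuclei and 7.52 peak CPM in oligodendrocyte-like nuclei. The Pde10a promoter was at 112 peak CPM in neuron-like and 111 peak CPM in astrocyte-like nuclei, against 22.8 peak CPM in oligodendrocyte-like nuclei. Its RNA in these sets was 452, 1293 and 24.8 CPM.

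Finally, the genes most like 3 members were listed over 20 clusters of both libraries, by Pearson r of log2(CPM + 1) among 15225 genes. These correlations describe clusters that share a library and its depth. The genes most like Drd1 were Gm15813 (r = 0.926), Kcna5 (0.924), Epyc (0.919), Gm48006 (0.908) and Lrtm1 (0.902). Those most like Adora2a were Cbr3 (0.890), the members Ppp1r1b (0.871) and Penk (0.865), Dnajc8 (0.854) and Sh3rf2 (0.853). Those most like Ppp1r1b were Krt10 (0.962), Arpc5l (0.961), Hras (0.960) and Chchd10 (0.960). In the GENCODE M21 annotation Ppp1r1b (chr11:98348404-98357796, mm10) overlaps 1700003D09Rik, Pde10a (chr17:8525372-8986648) overlaps Gm17087 and Penk (chr4:4133531-4138819) overlaps A830012C17Rik. In each case the other gene lies on the opposite strand, and an effect of the overlap on the counts was not tested.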

How the data were processed

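The authors prepared nuclei from frozen mouse brain lesions and made 10x Multiome libraries. Per the submitters' processing notes, reads were processed with Cell Ranger ARC 2.0.0 on mm10, and the deposited matrices hold raw counts of UMIs per gene and of transposase cut sites per peak, with peaks called in each library. The reference had 13 added vector features, none of them FOXR2. The analysed libraries of Foxr2 p53LOF and of Foxr2 alone held 10379 and 10096 barcodes, 96929539 and 59719847 UMIs, and 102529894 and 118436178 peak counts.

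The members, gene lists and tests were chosen with earlier results of these data known. Nuclei with at most 5% mitochondrial UMIs, 400 or more genes and 400 or more fragments within peaks (peak counts divided by 2) were kept, and Scrublet (expected rate 8%) removed 353 of 8712 (4.05%) and 540 of 8856 (6.10%) as doublets. Nuclei were clustered with scanpy 1.11.5 and leidenalg 0.10.2 (2000 variable genes without members or partners, 30 components, 20 neighbours, resolution 0.5) and named by marker lists as X-like. The median log2 fold and number of markers needed for a name were set after the data had been seen, and 3.47% (Foxr2 p53LOF) and 0.228% (Foxr2 alone) of nuclei stayed unnamed. UMIs were summed per set of nuclei and given as CPM with exact Poisson, conditional or Clopper-Pearson intervals at 95% (scipy 1.17.1, numpy 2.4.6, Python 3.11.15), which cover counting error only and were tested on simulated data. With 1 library per genotype no test was run. A call needed 2-fold and 10 CPM, or 5 peak CPM for peaks; a count of 0 was set to 3. Nuclei were thinned to 1000 UMIs for shares. Start sites came from GENCODE M21 and figures were drawn with matplotlib 3.10.9. Libraries shared 140 barcodes (both analysed libraries), 34 (Foxr2 p53LOF and the second Foxr2 alone library) and 19 (both Foxr2 alone libraries).

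All 10 members are named, along with the 4 of 15 partners with the largest absolute log2 ratio and the 5 genes most like Drd1, Adora2a and Ppp1r1b; some genes that this rule names are not reported here. Other genes and clusters named were chosen after their values were seen. Alternatives varied the filters, doublet removal, resolution, thinning, promoter window and summing.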

Additional observations from a re-analysis of the deposited data

How the results depend on the processing

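No alternative reversed a direction: of 80 member values compared, all 80 kept their direction and 25 moved beyond their counting interval. The log2 ratio of summed member CPM in neuron-like nuclei, Foxr2 p53LOF over Foxr2 alone (-2.03), was -2.23 as a mean over nuclei, -1.99 with at least 1000 genes and 1000 peak counts, -2.16 with the limits set on peak counts and -1.99 with doublets kept. The ratio of striatal projection neuron-like over oligodendrocyte-like nuclei (3.73) was 3.95 as a mean over nuclei, 1.16 with the higher minima and 2.04 with doublets kept; without the cluster of 165 or 166 nuclei described in the report, the last 2 were 2.93 (2.83 to 3.04) and 3.71 (3.63 to 3.79). With the higher minima Scrublet marked 2 of 5865 nuclei of Foxr2 alone (0.0341%), so that doublets were in effect not removed there. The thinned share of nuclei with Drd1 that also had Drd2 (3.26%) was 1.198% with the higher minima, 1% with doublets kept and 0.498% at resolution 1.0. With the higher minima and with doublets kept, the cluster of 165 or 166 nuclei was outside the striatal projection neuron-like set counted. The effect of doublets on this share was not tested. The thinned share of nuclei with Adora2a that also had Drd2 (42.2%) was 93.0% without thinning, 78.6% at 3000 UMIs, 88.0% with at least 2 UMIs required and 30.6% with limits on peak counts. The ratio of summed promoter counts (1.96) was 2.28 within 2000 bp, 1.80 when nuclei with a count were used, 1.14 with the higher minima and 1.65 with doublets kept. Settings chosen after seeing the data left the mixed cluster out (3.72, 2.40% and 38.1% for the striatal ratio and the shares for Drd1 and Adora2a) or added the unnamed clusters named by Gpr149 and Alk and by Fign (3.70, 1.30% and 44.9%). No paired analysis was possible because counts of 1 library per genotype were analysed here, and leaving out a replicate was not possible for the same reason.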
